A study of Mus musculus with 21 samples.

Results

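The stefin A genes lie in 1 cluster on mouse chromosome 16. Of the 49315 genes counted in this series, 8 were taken by name: Csta1, Stfa2l1, Gm5483, Stfa1, BC117090, BC100530, Stfa2 and Stfa3. The list was drawn up with the 6-month comparison of these libraries already known. The members' own values in that comparison are therefore given as a description. No p-value is printed for them, and the count of members past the threshold supports nothing.

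Stefins are small type 1 cystatins that stay inside the cell. They bind tightly and reversibly in the active site of papain-like cysteine proteases, the lysosomal cathepsins, and block them. Stefin A is found in the upper epidermis, where it becomes part of the cornified envelope, and the mouse cluster genes are also known from neutrophils. Humans have a single gene, CSTA, where mice have this family of copies.

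The series asked what AP-2α and AP-2β, transcription factors encoded by Tfap2a and Tfap2b, do in adult epidermis, by sequencing total RNA of epidermal sheets. There were 21 samples in 7 groups of 3 at 3 weeks or 6 months of age. The comparison here set the genotype K14CreTfap2afl/flTfap2bfl/fl at 6 months (3 libraries labelled double knockout) against strain-specific controls of genotype WT at the same age (3 libraries). K14Cre places Cre recombinase under the promoter of keratin 14, a keratin of basal keratinocytes. Cells of the sheet outside that lineage, such as immune cells, are therefore not targeted. The labels name no Cre in the controls. Outside the comparison, 2 libraries of K14CreTfap2bfl/fl mice at 3 weeks of age held counts. The other 13 files, all from 3-week mice, listed every gene at 0, so those groups were not compared. The labels number the samples without saying that each is a separate animal, so the spread given is that between samples.

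The 8 libraries held 11318181 to 17746284 counts. Control replicates 1 and 2 stood apart: they had counts for 35794 and 39362 genes, against 23454 to 25537 in the other 6. Over 1418 olfactory and vomeronasal receptor genes, which skin should hardly express, they held 1.61 and 3.19 counts per kb of exon, against 0.0970 to 0.195 elsewhere. At that level a stefin A gene other than Csta1 would hold up to 2.52 counts in a control. Tfap2a, a deleted gene by label, stood at 164.6, 140.3 and 210.1 counts per 1000000 (CPM) in controls and at 228.6, 213.2 and 309.2 CPM in the labelled double-knockout libraries (log2 fold change of the labelled group over controls 0.47, SE 0.19, adjusted p = 0.118). Adjusted p-values here and below come from edgeR's quasi-likelihood test, adjusted by Benjamini-Hochberg across every gene in the fit. Tfap2b stood at 57.3, 86.6 and 71.03 CPM in controls and at 53.8, 57.2 and 56.9 CPM in the labelled double-knockout libraries (log2 fold change -0.43, SE 0.17, adjusted p = 0.111). Whole-gene counts do not show whether a floxed exon is lost, and they do not show loss of either gene here. Every direction below therefore rests on the labels.

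The sequences shown first are the coding stretch and the upstream stretch on which the members can be compared, because how alike the copies are bears on how their counts can be read. The coding sequences of BC117090 and BC100530 were identical at 95.2% of aligned bases, and those of Stfa2l1 and Stfa2 at 96.4%. Csta1 and BC100530 shared 82.8%. Shown are bases 61 to 120 of the BC100530 coding sequence and the aligned bases of 5 other members (GENCODE M21, GRCm38), with bases that differ from BC100530 in capitals.
BC100530: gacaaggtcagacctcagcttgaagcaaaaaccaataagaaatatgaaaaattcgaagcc
BC117090: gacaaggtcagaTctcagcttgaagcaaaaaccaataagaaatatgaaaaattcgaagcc
Stfa1: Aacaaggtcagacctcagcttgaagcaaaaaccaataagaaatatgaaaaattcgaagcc
Stfa2: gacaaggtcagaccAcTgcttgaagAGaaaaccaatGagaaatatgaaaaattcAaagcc
Stfa3: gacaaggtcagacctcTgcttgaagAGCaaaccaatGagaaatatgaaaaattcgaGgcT
Csta1: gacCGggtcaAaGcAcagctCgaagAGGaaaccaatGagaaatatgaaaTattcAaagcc

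Over these 60 bases BC117090 and Stfa1 each differed from BC100530 at 1 base, Stfa2 at 6, Stfa3 at 7 and Csta1 at 12. Stfa2l1 and Gm5483, not shown, differed at 7 and 15. Over its exons, 63.8% of the 50-base windows of BC100530 occurred in transcripts of no other gene, against 66.3% for BC117090, 77.5% for Stfa1, 84.1% for Stfa2, 99.2% for Csta1 and 100% for Stfa3. With 100-base windows the share was 84.4% for BC100530, 86.5% for BC117090 and 94.9% for Stfa1, and with 150-base windows it was 100% for every member. Reads of 150 bases from both ends can thus tell the copies apart over most of each gene, but reads that match 2 copies equally may be lost or shared. How such reads were counted is not given in the sources used here, so the split among BC100530, BC117090 and Stfa1 is less certain than their sum.

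Upstream, 7 of the 8 members had a promoter sequence in RefSeq (GRCm38.p6). All 7 held a related stretch of 26 bases, and the stretch is shown because it carries, in 4 of them, the letters GCCNNNGGC that AP-2 proteins recognise. Those letters are in capitals.
Csta1: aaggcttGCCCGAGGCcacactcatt
Stfa1: aagacttGCCTAAGGCcacactcatt
BC100530: aagacttGCCTAAGGCcacactcatt
Stfa3: aagatttGCCTGAGGCcacactcatt
Stfa2: aagacttgcctgaggtcacactcatt
Stfa2l1: aagacttgcctgagatcacactcatt
Gm5483: aagacctgcctgagtccacactcatt

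Starts in this comparison of upstream sequence are those of RefSeq. The stretch began 27 bases before the start in Csta1 (chr16:36131191-36131216, minus strand) and 93 bases before it in BC100530 (chr16:36367638-36367663, minus strand). In the annotation used for counting, both genes start further upstream, at 36131241 and 36367748, so there the stretch lies inside the gene. The stretch was the same, base for base, in Stfa1 (chr16:36277034-36277059, plus strand) and BC100530. The AP-2 letters were searched on both strands in the 250 bases before each start, and occurred there in Csta1, Stfa1, BC100530 and Stfa3, and in 13.7% of 32851 promoters of that length. They were absent in Stfa2, Stfa2l1 and Gm5483. The C/EBP letters TTGCNNAA overlapped them in Stfa1 and BC100530 (9.56% of all promoters). The STAT letters TTCNNNGAA occurred in Gm5483 (7.02%), and none of the 7 had the AP-1 letters TGANTCA (6.75%), the TATA letters TATAAA (12.4%) or the ETS letters GAGGAAGT (2.44%). These matches are descriptions of sequence and not evidence of binding.

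The RefSeq starts of Csta1 and BC100530, the 2 members with the most counts, lie at different distances from that stretch. Since the genes as counted start further upstream, at 36131241 and 36367748, part of each window below lies inside the gene. Their 250 bases before the start are shown 5′ to 3′ with the AP-2 letters in capitals, together with the C/EBP letters that overlap them in BC100530, for Csta1 at chr16:36131190-36131439 and for BC100530 at chr16:36367571-36367820, both on the minus strand.
Csta1: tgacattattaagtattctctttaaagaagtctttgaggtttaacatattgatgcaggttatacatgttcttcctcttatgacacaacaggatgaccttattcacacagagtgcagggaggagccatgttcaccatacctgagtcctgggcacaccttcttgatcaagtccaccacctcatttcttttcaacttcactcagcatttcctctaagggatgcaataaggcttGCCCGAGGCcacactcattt
BC100530: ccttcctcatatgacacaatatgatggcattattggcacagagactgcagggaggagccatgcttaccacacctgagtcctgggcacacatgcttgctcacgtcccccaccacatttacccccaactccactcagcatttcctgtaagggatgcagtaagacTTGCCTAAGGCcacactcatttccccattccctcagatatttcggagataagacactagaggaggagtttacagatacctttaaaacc

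After alignment the promoters of Stfa1 and BC100530 were identical at 81.2% of columns, and those of Stfa2l1 and Stfa2 at 89.4%. The Csta1 window covers another part of the sequence, since its RefSeq start lies closer to the shared stretch. Its identity with the others is therefore not compared. The letters TTTAAAA, chosen after the promoters were seen, occurred in the other 6, from 9 to 33 bases before the start (8.10% of all promoters). In those 6 they lie between the stretch and the start, a part that the Csta1 window hardly covers.

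Of the 8 members, 6 passed edgeR's filter on low counts, and Stfa2l1 and Gm5483 did not. In the edgeR fit over 17755 genes, 5 of the 6 had an adjusted p under 0.05 in the higher direction, where 6.26% of all genes did, and none in the lower direction, where 8.59% did. The same 5 had every labelled double-knockout library above every control, as did 22.5% of all genes. Since the list was chosen on this comparison, nothing further is read from those counts. The median log2 fold change was 4.33 over the 6 members and -0.035 over all genes tested.

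**Figure D1:**
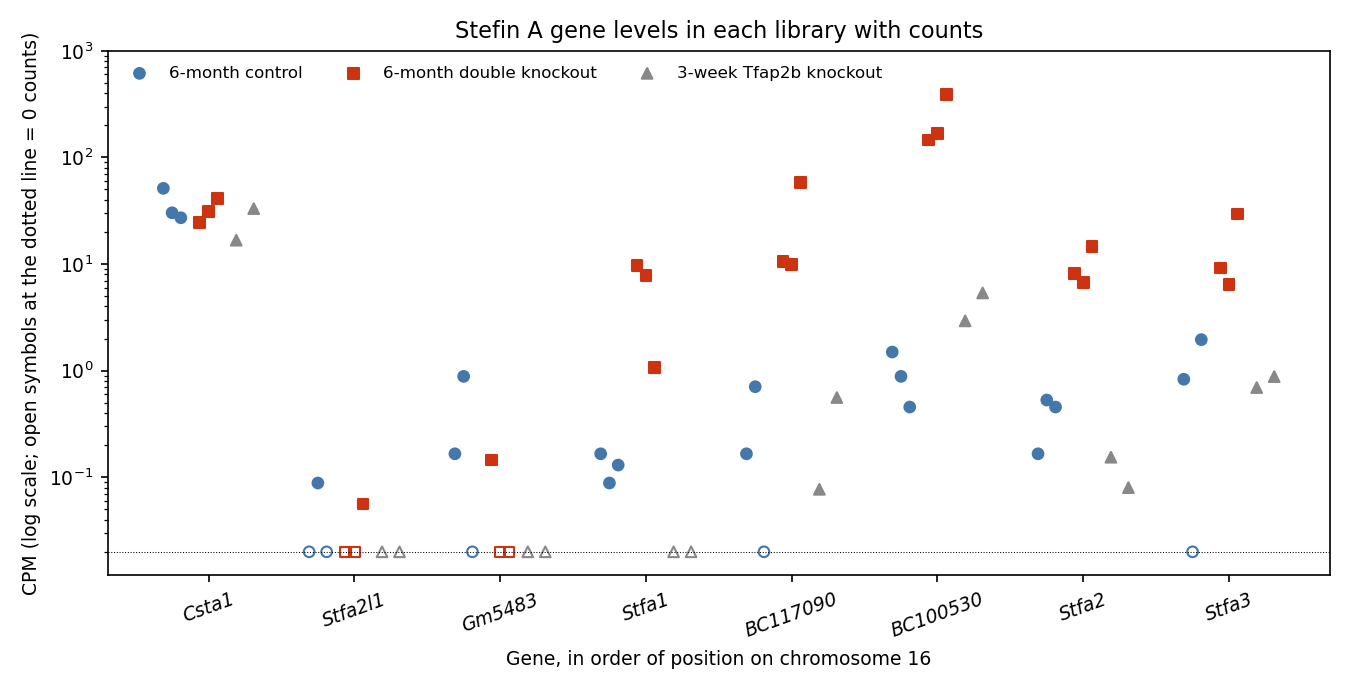
Level of each stefin A gene in CPM (log axis) in the 3 control and 3 labelled double knockout libraries at 6 months and the 2 labelled Tfap2b knockout libraries at 3 weeks, each symbol being 1 library and open symbols on the dotted line libraries with 0 counts. Csta1 overlaps between the 6-month groups at 24.6 to 51.2 CPM, and BC100530 lies at 146 to 391 CPM in the labelled double-knockout libraries and at 0.456 to 1.49 CPM in controls.

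Csta1 (ENSMUSG00000034362, chromosome 16, 36119946 to 36131241, minus strand), the mouse gene that carries the name of human CSTA, held 217 counts or more in every library. It stood at 51.2, 30.2 and 27.2 CPM in control replicates 1, 2 and 3. In the labelled double-knockout libraries it stood at 24.6, 31.0 and 41.2 CPM. The groups overlapped, and the means were 36.2 ± 13.1 and 32.3 ± 8.42 CPM (SD and n = 3 per group; log2 fold change -0.24, SE 0.28). The sign of that small difference depended on the library set, from -0.42 without double knockout replicate 3 to 0.11 without control replicate 1.

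BC100530 (ENSMUSG00000071561, named Cstdc5 in RefSeq, chromosome 16, 36359382 to 36367748, minus strand), a stefin A copy, had the largest values of the cluster in the labelled double-knockout libraries. Controls held 18, 10 and 7 counts, or 1.49, 0.884 and 0.456 CPM. The libraries labelled double knockout held 2012, 2448 and 6946 counts, or 146, 167 and 391 CPM. The lowest of these was far above the highest control, and replicate 3 was 2.5 times the mean of the other 2. The log2 fold change was 7.73 (SE 0.62), and leaving out any 1 library kept it between 7.15 and 8.18. By CPM per kb of exon it ranked 12459 to 17722 among all genes in controls and 51 to 133 in the labelled double-knockout libraries.

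BC117090 (ENSMUSG00000079594, named Cstdc6 in RefSeq, chromosome 16, 36321665 to 36334332, minus strand), the copy nearest to BC100530 in coding sequence, held 2, 8 and 0 counts in controls. It held 146, 145 and 1025 counts in the labelled double-knockout libraries, or 10.6, 9.89 and 57.8 CPM. Replicates 1 and 2 were close to each other, and replicate 3 stood at 5.65 times their mean. The log2 fold change of 5.96 (SE 1.24) became 4.58 without that library.

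Stfa1 (ENSMUSG00000071562, chromosome 16, 36277148 to 36285371, plus strand) ran the other way among those libraries. Controls held 2, 1 and 2 counts, and the labelled double-knockout libraries 133, 114 and 19. Replicate 3, highest for each other member that passed the filter, was lowest for Stfa1, at 0.123 times the mean of replicates 1 and 2. Summed over each group and scaled by total counts, Stfa1 was 44.6 times as high in the group labelled double knockout (95% exact counting interval 18.9 to 138.4, which covers counting error only). The fitted log2 fold change was 4.48 (SE 0.92).

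Stfa2 (ENSMUSG00000022902, chromosome 16, 36403946 to 36408363, minus strand) held 2, 6 and 7 counts in controls and 112, 99 and 259 in the labelled double-knockout libraries. In CPM these were 0.166, 0.530 and 0.456 against 8.11, 6.75 and 14.6. The groups did not overlap, and the log2 fold change was 4.18 (SE 0.52), the smallest standard error among the 5 higher members.

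Stfa3 (ENSMUSG00000054905, chromosome 16, 36450537 to 36455392, minus strand), the last member along the chromosome, held 10, 0 and 30 counts in controls. It held 127, 94 and 522 counts in the labelled double-knockout libraries, or 9.20, 6.41 and 29.4 CPM. Its controls ranged from 0 to 1.95 CPM. The log2 fold change of 3.72 (SE 0.99) ranged from 2.80 without double knockout replicate 3 to 4.75 without control replicate 3.

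Stfa2l1 (ENSMUSG00000059657, chromosome 16, 36156811 to 36161948, plus strand) had 1 count in control replicate 2, 1 in double knockout replicate 3 and 0 elsewhere, though its coding sequence is 96.4% that of Stfa2. Gm5483 (ENSMUSG00000079597, named Cstdc4 in RefSeq, chromosome 16, 36184212 to 36188111, plus strand) had 2, 10 and 0 counts in controls and 2, 0 and 0 in the labelled double-knockout libraries. The receptor genes' level would give Gm5483 0.666, 1.32 and 0.0611 counts in the 3 controls. A count of 0 allows up to 3 counts, or 0.169 to 0.265 CPM in these libraries. Neither gene can be placed in a group by these counts.

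**Figure D2:**
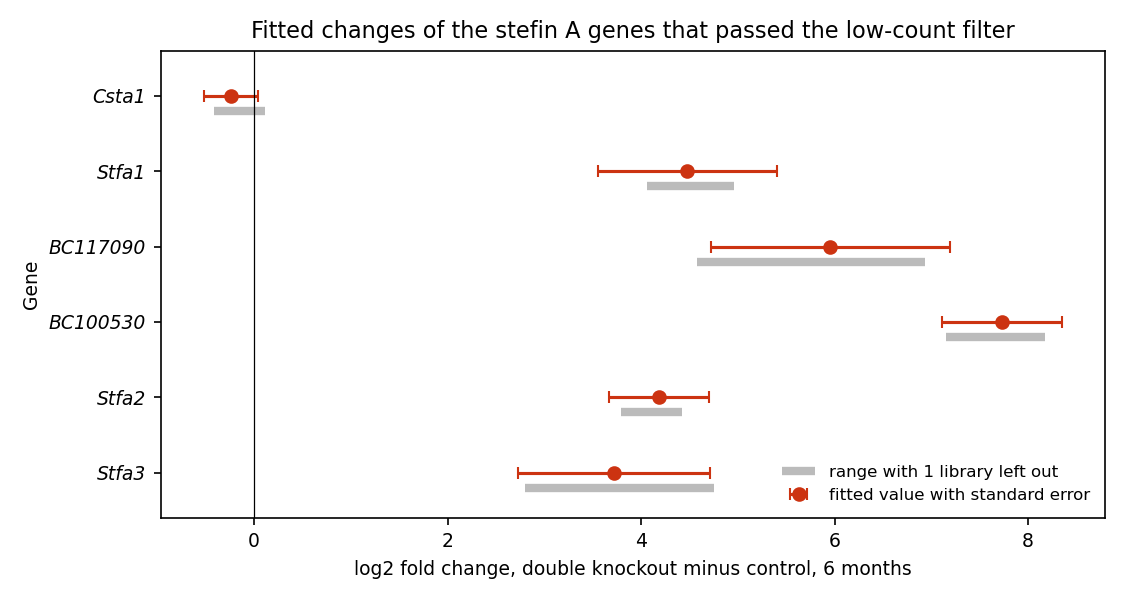
Fitted log2 fold change of the 6 members that passed the low-count filter, labelled double-knockout libraries minus controls at 6 months, with standard error bars and, as gray bars, the lowest to highest value when any 1 of the 6 libraries is left out. Csta1 straddles 0, and the other 5 lie between 3.72 and 7.73, each with a left-out range wholly above 2.

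Levels of different genes were compared as CPM per kb of exon. Csta1 led the cluster in controls at a mean of 13.0 CPM per kb, with Stfa3 next at 2.25, BC100530 at 1.20, Stfa2 at 0.908, Gm5483 at 0.845, BC117090 at 0.752, Stfa1 at 0.307 and Stfa2l1 at 0.0711. Below Csta1 this order rests on 0 to 30 counts a library, and the ranges of neighbours in it overlapped. In the labelled double-knockout libraries BC100530 led at 297 CPM per kb, followed by BC117090 at 67.4, Stfa3 at 36.4, Stfa2 at 23.2, Stfa1 at 14.7 and Csta1 at 11.6, with Gm5483 at 0.117 and Stfa2l1 at 0.0454. BC100530 was the highest member in each of those 3 libraries, at 184, 211 and 495 CPM per kb, and its range did not reach that of any other member. The ranges of BC117090, Stfa3 and Stfa2 overlapped.

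Summed over all 8 members the controls held 54.2, 33.4 and 30.1 CPM, and the labelled double-knockout libraries 208, 229 and 536 CPM (log2 fold change 2.97, SE 0.44). The sum does not depend on how counted reads were split among these copies. Reads that were dropped, or counted for several genes, would still change it. Without Csta1 the remaining 7 genes held 2.99, 3.18 and 2.99 CPM in controls and 183, 198 and 494 CPM in the labelled double-knockout libraries (log2 fold change 6.45, SE 0.48). Without double knockout replicate 3 that value was 5.85. The sum without Csta1 was thus nearly the same in the 3 controls, although its members were not. The receptor genes' level differed among these controls, at 1.61, 3.19 and 0.148 counts per kb, and its part in that likeness was not tested.

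The make-up of the cluster's counts differed between the groups. Csta1 made up 94.5%, 90.5% and 90.1% of the summed counts in controls and 11.8%, 13.6% and 7.70% in the labelled double-knockout libraries. BC100530 made up 2.76%, 2.65% and 1.51% in controls and 70.1%, 73.0% and 73.1% in the labelled double-knockout libraries. The BC100530 share was therefore much alike in replicate 3 and in the other 2, although the total of 536 CPM was the highest there. The smaller members were not alike: BC117090 took 5.09% and 4.32% of the counts in replicates 1 and 2 and 10.8% in replicate 3 (95% Wilson interval 10.18% to 11.42%). Stfa1 took 4.63% and 3.40% in replicates 1 and 2 and 0.2% in replicate 3 (95% Wilson interval 0.13% to 0.31%). In counts, BC117090 to Stfa1 stood at 1.10 and 1.27 in those replicates and at 53.9 in replicate 3. How reads shared by these copies were assigned bears on this ratio, and that was not tested.

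**Figure D3:**
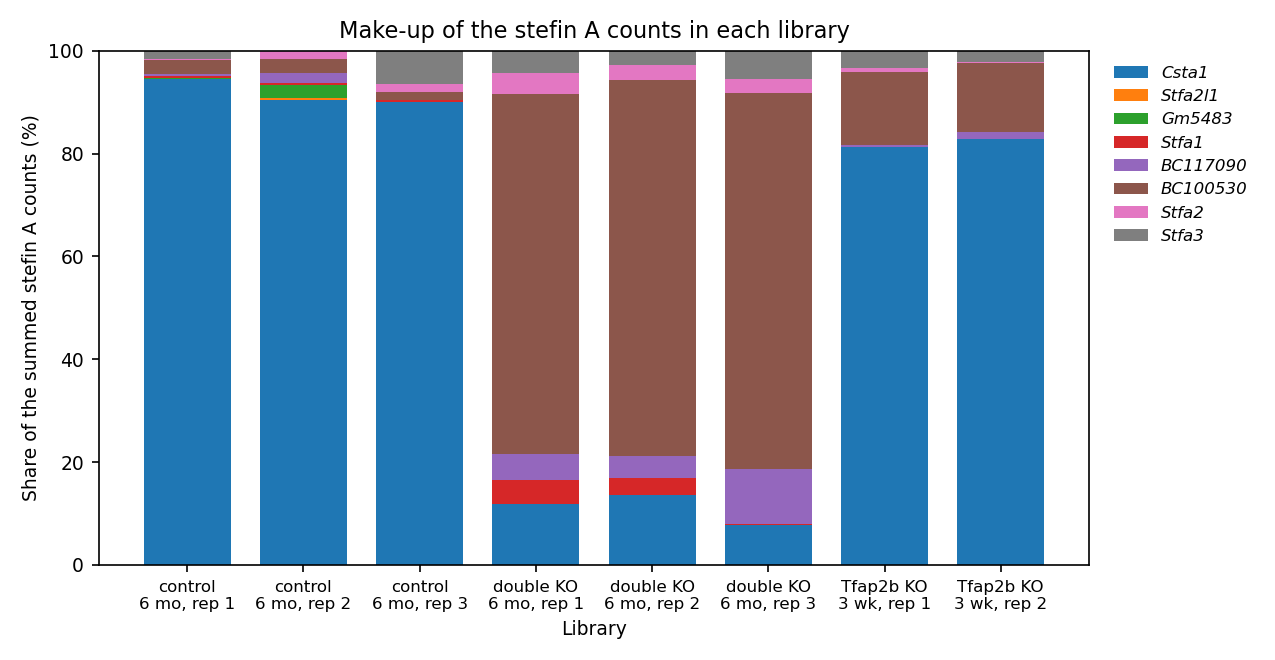
Share of the summed counts of the 8 stefin A genes held by each gene (vertical axis, percent) in each of the 8 libraries with counts (columns; KO, knockout as labelled). Csta1 fills 90.1% to 94.5% of the control columns and 7.70% to 13.6% of the labelled double knockout columns, where BC100530 fills 70.1% to 73.1%.

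Some genes of inflamed or stressed keratinocytes were also highest in double knockout replicate 3, and others were not. The first 4 below were chosen after their values were seen. S100a8, a calcium-binding alarmin subunit, stood at 24, 4.23 and 172 CPM in replicates 1, 2 and 3. Its partner S100a9 stood at 7.60, 2.52 and 70.8 CPM. Rptn, a cornified envelope protein, stood at 29.1, 11 and 190 CPM, and Il1f6, the interleukin 36 alpha gene, at 5.21, 3.82 and 32.6 CPM. On the same lists Krt16 stood at 1283, 781 and 1073 CPM, Krt6a at 1867, 1460 and 1720, Il1b at 2.03, 1.64 and 1.47, Sprr1b at 189, 179 and 153 and Sprr1a at 412, 207 and 173. Of the 13 wound and stress genes listed below, all but Krt16, Krt6a and Il1b were highest in replicate 3. Sprr1b and Sprr1a were among several cornified envelope genes that were not. What any of them share with the stefin A values was not tested.

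The 8 members span 335 kb, with 20 other genes between them. Of these 13 were small nuclear RNA genes, and 2 passed the low-count filter. Gm5416, a further stefin copy named Csta3 in RefSeq (chromosome 16, 36210403 to 36217788, plus strand), held 0, 7 and 0 counts in controls and 39, 18 and 76 in the labelled double-knockout libraries. Its log2 fold change of 3.07 (SE 1.15) did not pass the threshold (adjusted p = 0.0551), though the groups did not overlap. Gm5416 did pass in 4 of 15 alternative settings or sets of libraries. Gm15845 (chromosome 16, 36367070 to 36387406, plus strand), a transcript antisense to BC100530 that overlaps its start, held 1, 4 and 0 counts in controls and 25, 13 and 61 in the labelled double-knockout libraries. It rose with a log2 fold change of 2.92 (SE 1.03, adjusted p = 0.0352), a call lost in 7 of 15 alternative settings or sets of libraries. Whether reads were counted by strand is not given in the sources used here, so reads of BC100530 and Gm15845 within their overlap (36367070 to 36367748) cannot be told apart. A further copy, 2010005H15Rik (Csta2 in RefSeq), held 1 count in double knockout replicate 3 and 0 in the other 5 libraries at 6 months.

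Within 500 kb on either side lay 24 more genes. Of the 18 tested, 2 rose and 2 fell, with a median log2 fold change of -0.31. Fam162a, before Csta1 on the chromosome, rose from 26.3 ± 6.07 to 87.9 ± 28.3 CPM (SD and n = 3 per group, log2 fold change 1.66, SE 0.25, adjusted p = 0.00443). Ccdc58, between it and Csta1, rose from 6.67 ± 1.43 to 16.9 ± 2.19 CPM (log2 fold change 1.25, SE 0.24, adjusted p = 0.0108), a call lost in 2 of 16 alternatives, among them leaving out double knockout replicate 1. Beyond Stfa3, Iqcb1, a cilium gene, fell from 17.6 ± 2.37 to 4.09 ± 0.906 CPM (log2 fold change -2.14, SE 0.26, adjusted p = 0.0013). The transcript 4930565N06Rik fell by 0.80 on the log2 scale (adjusted p = 0.0497), a call lost in 10 of 16 alternatives. On the same side Casr, the calcium-sensing receptor gene, held 20, 23 and 0 counts in controls and 7, 0 and 1 in the other group, which overlapped, and it was not tested.

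**Figure D4:**
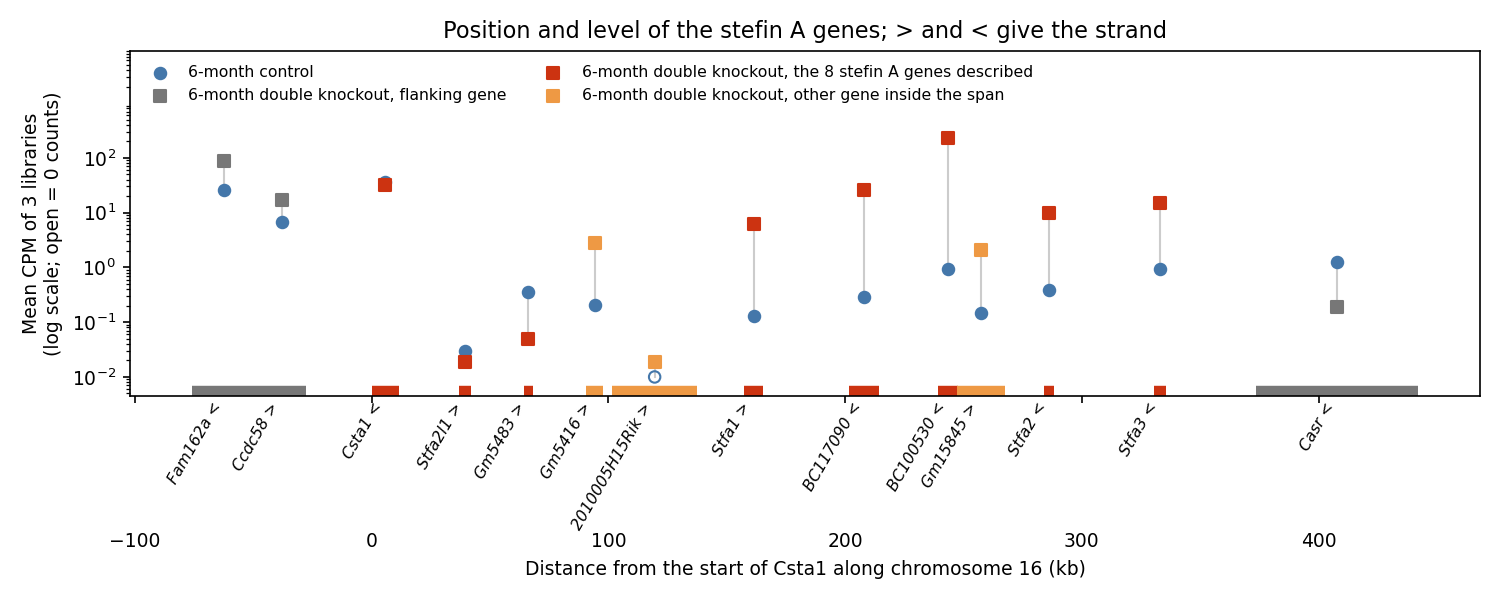
Stefin A genes and chosen neighbours along chromosome 16, by distance in kb from the start of Csta1 (boxes at the bottom; > plus strand, < minus strand), with the mean CPM of the 3 controls (circles) and of the 3 libraries labelled double knockout (squares) on a log axis. The 5 members from Stfa1 to Stfa3 stand apart from their controls, Csta1 does not, and the 2 members between Csta1 and Gm5416 lie under 1 CPM in both groups.

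The proteases that stefins bind and the other cystatins were taken as lists. Of 15 other cystatin genes, 10 held at most 3 counts in each labelled double-knockout library, and of the 5 tested 1 rose and 1 fell (median log2 fold change -0.34). Cstb, stefin B, the other intracellular stefin, rose from 53.2 ± 9.95 to 90.8 ± 10.2 CPM (SD and n = 3 per group; log2 fold change 0.70, SE 0.18, adjusted p = 0.0314), a call lost in 5 of 16 alternatives. Cst7, cystatin F of immune cells, fell from 2.47 ± 0.782 to 0.754 ± 0.0326 CPM (log2 fold change -1.61, adjusted p = 0.0478), a call lost in 12 of 16. The secreted cystatins Cst3 and Cst6, the latter an inhibitor active in cornifying epidermis, had log2 fold changes of -0.34 and -0.43 with overlapping groups. The difference in stefin B was small beside that of the 5 higher stefin A members.

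Among 11 cysteine protease genes, 10 were tested, 2 rose and none fell, and the median log2 fold change was -0.22. Ctsc, cathepsin C, which activates granule serine proteases, rose from 58.2 ± 15.9 to 128 ± 27.6 CPM (log2 fold change 1.06, SE 0.23, adjusted p = 0.018), a call lost in 3 of 16 alternatives, among them leaving out control replicate 2 or double knockout replicate 1. Ctsb, cathepsin B, rose from 190 ± 24.3 to 306 ± 38.1 CPM (log2 fold change 0.61, SE 0.15, adjusted p = 0.03), a call lost in 7 of 16 alternatives. Ctsl, cathepsin L, which stefin A inhibits, held 98.5, 67.4 and 77.3 CPM in controls and 37.7, 46.7 and 78.2 CPM in the labelled double-knockout libraries. Its groups overlapped (log2 fold change -0.65, adjusted p = 0.134), and without double knockout replicate 3 the value was -0.98 and passed. Ctsh, cathepsin H, had a log2 fold change of -0.19 (adjusted p = 0.376).

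Of 12 inhibitors of other protease classes, 10 were tested, 1 rose and 2 fell (median log2 fold change -0.09). Serpinb3a, a serpin of squamous epithelium that can also inhibit cysteine proteases, rose from 0.616 ± 0.549 to 12.2 ± 12 CPM (log2 fold change 4.02, SE 0.93, adjusted p = 0.0218). Like BC117090 it was highest in double knockout replicate 3, at 25.9 CPM against 7.39 and 3.41, and its call was lost in 3 of 15 alternatives, among them leaving out control replicate 1. Spink5, the kallikrein inhibitor LEKTI, fell by 1.02 on the log2 scale (SE 0.14, adjusted p = 0.00241), and Wfdc5 fell by 1.03 (SE 0.27, adjusted p = 0.0325), the latter lost in 6 of 16 alternatives.

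Of 22 cornified envelope genes, 19 were tested, 2 rose and 1 fell (median log2 fold change 0.29). Sprr1b, a small proline-rich precursor of the envelope, rose by a log2 fold change of 4.51 (adjusted p = 0.000772), from 7.07 ± 3.86 to 174 ± 18.5 CPM. Krt1, the suprabasal keratin, rose by 1.05 (adjusted p = 0.0081), and Flg2, a filaggrin relative, fell by 1.47 on the log2 scale (adjusted p = 0.00982). Lor and Ivl, which code for the envelope proteins loricrin and involucrin, had log2 fold changes of -1.27 (adjusted p = 0.131) and 0.05 (adjusted p = 0.897).

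Of 13 wound and stress genes of keratinocytes, 12 were tested, 4 rose and 1 fell (median log2 fold change 1.78). Krt6b, a keratin of wounded and inflamed epidermis, rose by a log2 fold change of 8.26 (adjusted p = 0.000128), Krt6a by 3.60 (adjusted p = 0.0123), Krt16 by 3.52 (adjusted p = 0.0476) and the matrix gene Tnc by 1.94 (adjusted p = 0.00204). Krt6a lost its call without double knockout replicate 3, and Krt16 in 7 of 16 alternatives. Areg, an EGF receptor ligand, fell by 1.27 on the log2 scale (adjusted p = 0.0168), a call lost in 4 of 16 alternatives, among them leaving out control replicate 2 or double knockout replicate 1 or 2. Of the AP-2 family, 4 of 5 genes were tested and 1 rose, Tfap2c, from 94.7 ± 11 to 142 ± 6.25 CPM (log2 fold change 0.50, adjusted p = 0.0384), a call lost in 8 of 16 alternatives.

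**Figure D5:**
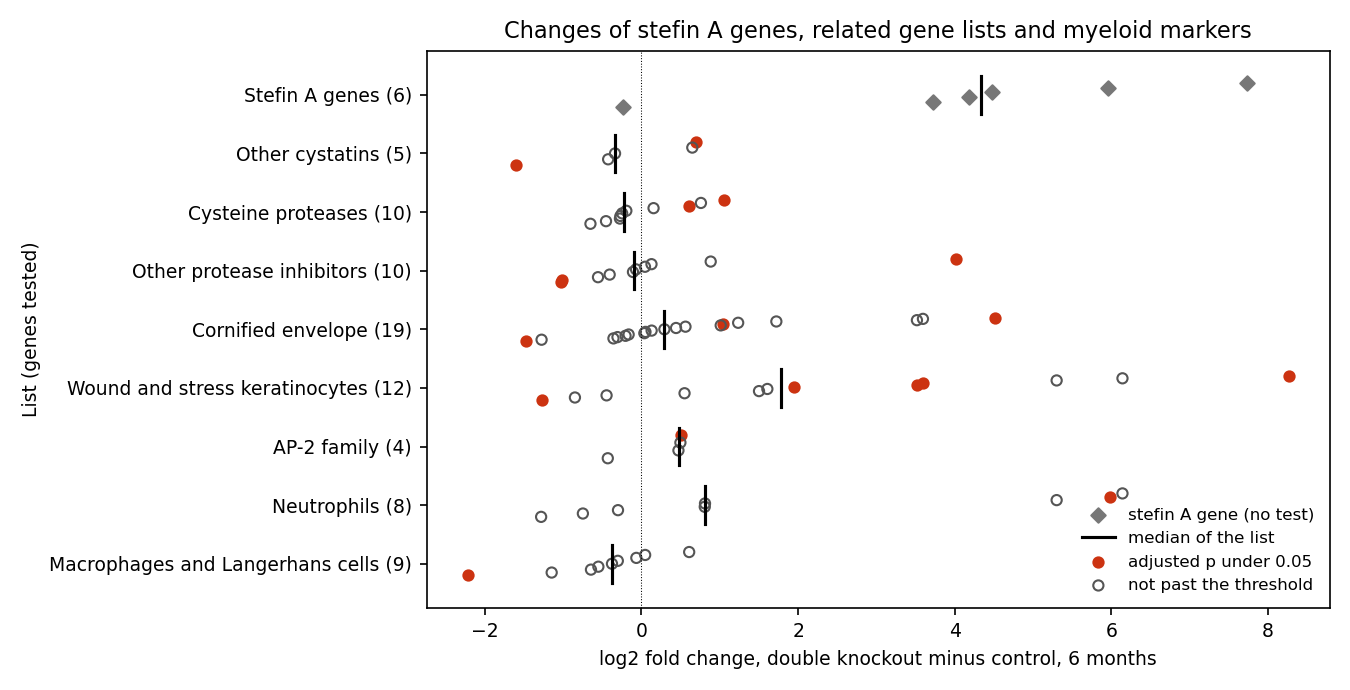
Log2 fold change at 6 months, labelled double-knockout libraries minus controls, of each tested gene of the stefin A cluster, of 6 gene lists and of neutrophil and macrophage markers (filled circles, adjusted p under 0.05; open circles, not past it; gray diamonds, stefin A genes, shown with no test; black line, median of the list). The median is 4.33 for the stefin A genes, 1.78 for the wound and stress list and between -0.38 and 0.81 for the other lists.

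Stefin A genes are also genes of neutrophils, and in bulk RNA fewer cells of a type and less RNA per cell cannot be told apart. Of 16 neutrophil markers 8 were tested and 1 rose: Cxcr2, a chemokine receptor, from 0.363 ± 0.121 to 33.2 ± 11.1 CPM (log2 fold change 5.98, SE 0.37, adjusted p = 9.87e-05). S100a8 and S100a9, which also stand on the wound and stress list, did not pass (log2 fold changes 6.14 and 5.30, adjusted p = 0.119 and 0.0797). S100a8 passed in 1 of 15 alternatives and S100a9 in 3 of 15. The 16 markers summed to 68.0 to 90.6 CPM in controls and to 115 to 339 CPM in the labelled double-knockout libraries. In each labelled double-knockout library Mpo, Elane and Cebpe, genes of granules and of granule maturation, were at 0, and Ly6g, Camp and Trem1 held at most 3 counts. Other markers were present there: Mmp9 held 220, 276 and 281 counts, Il1r2 688, 880 and 918, Csf3r 26, 1 and 17, Mmp8 15, 10 and 16, Ltf 9, 4 and 13, Ngp 5, 2 and 4 and Retnlg 0, 4 and 2. They were present in controls too. Mean CPM in controls and in the labelled double-knockout group was 9.07 and 16.9 for Mmp9 and 0.433 and 0.890 for Mmp8. The other means were higher in controls: Il1r2 62.9 and 53.9, Csf3r 1.64 and 0.970, Ltf 1.49 and 0.552, Ngp 0.777 and 0.241 and Retnlg 0.260 and 0.128. In control replicates 1, 2 and 3 Mpo held 4, 27 and 2 counts, Elane 5, 10 and 0 and Cebpe 8, 16 and 0. Most of these lay in replicates 1 and 2, where counts over receptor genes were raised. The part of neutrophils in the stefin A values was not tested. Macrophage and Langerhans cell markers summed to 482 to 665 CPM and 406 to 617 CPM in the 2 groups. Keratinocyte markers summed to 14198 to 17633 CPM in controls and 20179 to 24833 CPM in the labelled double-knockout libraries. Over the same libraries sebaceous gland markers summed to 742 to 905 and 195 to 236 CPM, and dermal fibroblast markers to 59.2 to 171 and 13.8 to 25.4 CPM. The macrophage and Langerhans sums overlapped between the groups and the other 3 did not, and their part in the stefin A values was not tested.

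The genes whose pattern over the 8 libraries lay closest to that of the summed stefin A counts were named by distance: the root mean square difference of log2(CPM + 1), each gene centred on its own mean, over the 16991 genes with a mean of at least 1 CPM. That sum was mostly Csta1 in controls and mostly BC100530 in the labelled double-knockout libraries. Nearness to it is therefore not likeness to any member by itself. The closest genes were 2610528A11Rik (distance 0.445), Igfl3 (0.450), Tmprss11b (0.456) and Gpnmb (0.473), where the median gene stood at 1.59. Next came Lrat (0.477), Slc39a8 (0.484), Mmp13 (0.509) and Gjb6 (0.519). 2610528A11Rik held 0.830, 1.15 and 0.912 CPM in controls and 14.6, 21.9 and 39.7 CPM in the labelled double-knockout libraries. Tmprss11b, a serine protease of stratified epithelium, held 6.16, 3.75 and 16.7 CPM in the latter, again highest in replicate 3. Gjb6, the connexin 30 gene, held 6.01, 5.45 and 18.0 CPM there.

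In the 2 libraries labelled Tfap2b knockout, of 3-week mice, the cluster had the make-up seen in the 6-month controls more than that of the labelled double-knockout libraries. Csta1 held 16.7 and 33.1 CPM and 81.3% and 82.8% of the summed counts. BC100530 held 38 and 67 counts, or 2.93 and 5.35 CPM, and 14.2% and 13.4% of the sum. Both BC100530 values lay above the highest 6-month control, 1.49 CPM, and below the lowest labelled double-knockout library, 146 CPM. Stfa3 held 9 and 11 counts, BC117090 1 and 7, Stfa2 2 and 1, and Stfa1, Stfa2l1 and Gm5483 0. Replicate 1 of these stood apart in markers of other cells, with fibroblast markers summing to 2687 CPM against 17.7 in replicate 2 and sebaceous markers to 8502 CPM against 547. Age and genotype cannot be told apart in these values, and controls of that age were not analysed here.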

How the data were processed

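Total RNA of mouse epidermal sheets was depleted of ribosomal RNA and sequenced as paired reads of 150 bases, per the labels' protocols. The deposited values are whole-number counts per gene, not normalized. The submitters' processing notes name Trimmomatic 0.36, STAR 2.5.2b, featureCounts and Subread 1.5.2, and the builds GRCm38 and GRCh38. The handling of reads that match several places and of strand is not given in the sources used here. Of 49315 gene identifiers, 48970 (99.3%) had a GENCODE M21 symbol. Coordinates are those of GRCm38.

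The members and lists were chosen with earlier results of these data known. CPM are counts per 1000000 counts of the library. The 6-month comparison used edgeR 4.0.16 in R 4.3.3 (filterByExpr, TMM, quasi-likelihood test, prior count 2) on its 6 libraries, with Benjamini-Hochberg adjustment over 17755 genes and a threshold of 0.05. Standard errors come from the unshrunken coefficient and the F statistic. Adjusted p-values are printed for genes outside the cluster only. Each sum was fitted as a gene that replaced its members. Intervals and the 3 counts a 0 allows cover counting error only, because PCR reads without molecular identifiers are not independent molecules. Named list and neighbour genes were those past the threshold, at most 5 a list, whose higher group averaged 1 CPM or more, with others as examples. Sequences come from RefSeq (GRCm38.p6) and GENCODE M21.

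On simulated data, with 191 of 17249 tested genes changed 4-fold, 141 (73.8%) were recovered, 0 in the wrong direction, and 12 unchanged genes were called. Alternatives were other scalings, other filters, DESeq2 1.42.0, all libraries in one fit, a replicate block, a prior count of 0.5, subtraction of the receptor genes' level, each library left out and, chosen after seeing the data, control replicate 3 alone and the sum without Csta1. Same-numbered samples did not deviate together (correlations 0.028, -0.161 and -0.057), so the numbers were not taken as pairs.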

Additional observations from a re-analysis of the deposited data

Results flagged for a closer look

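The 2 libraries labelled Tfap2b knockout at 3 weeks entered no comparison, since controls of their age were not analysed here. In them 3 stefin A genes held more than the 3 counts that a 0 allows in both libraries. Csta1 stood at 16.7284 and 33.088 CPM in replicates 1 and 2. BC100530 stood at 2.9294 and 5.35482 CPM. Stfa3 stood at 0.693805 and 0.879149 CPM.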

How the results depend on the processing

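The members past the threshold, chosen on these same libraries, went from 5 to 3 without a filter, to 0 with at least 10 counts in every library, where Csta1 alone was tested, and to 3 to 5 with 1 library left out (3 without control replicate 1). With control replicate 3 alone there was 1, the lone library being assumed to vary like the others. The summed log2 fold change kept its direction in every alternative (2.43 to 3.29 with 1 library left out, 3.37 with control replicate 3 alone), and without Csta1 it was 5.85 (without double knockout replicate 3) to 6.74 with 1 left out. Under the replicate block the members called were 5 and the sum 2.87; the replicate numbers are shared but do not pair the samples.

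Genes called numbered 4809 without a filter, 4192 by DESeq2, 1548 with all libraries in one fit, 1729 under the replicate block, 437 with control replicate 3 alone and 668 (without double knockout replicate 1) to 7544 (without control replicate 3) with 1 left out, against 2637. Of the 60 pathway genes tested, 16 were called, 8 (without control replicate 2) to 25 (without control replicate 3) with 1 left out, 12 under the replicate block and 6 with control replicate 3 alone. Neighbour calls went from 5 to 3 with all libraries in one fit or control replicate 3 alone, to 4 under the replicate block, and to 3 to 6 with 1 left out. With control replicate 3 alone the Cst6 value was 0.32, and Fam162a, Krt1, Flg2 and Tnc lost their calls. The causes were not tested. Members other than Csta1 rest on at most 30 counts per control library, so their control levels are imprecise.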
